A study of Nannospalax ehrenbergi and Mus musculus with 25 samples.

Results

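In all, 10 genes of the platelet-derived growth factor (PDGF) and fibroblast growth factor (FGF) receptor systems were followed through all libraries of a study of chemically induced tumors in Spalax, the blind mole rat that lives underground, and in the house mouse. They were chosen by name: the PDGF ligands Pdgfa, Pdgfb and Pdgfc, the PDGF receptors Pdgfra and Pdgfrb, the FGF receptors Fgfr1, Fgfr2 and Fgfr4, and the receptors Met and Egfr. All 10 were read from the mouse table of 47593 genes, and 9 from the Spalax table of 27988 genes, where Egfr was not analyzed here. RNA-seq had been made from neck muscle or from tumor tissue at the same site. Of the 25 libraries, 16 are of Spalax and 9 of mouse.

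The animals fall into groups by treatment and outcome. The carcinogen was 3-methylcholanthrene (3MCA), which damages DNA, given as a single injection of 1 mg in Spalax and 200 ug in mouse under the skin on one side of the neck. Spalax, wild-caught animals of unknown exact age, gave 4 untreated controls, 4 treated animals without a tumor (tolerant, injected side, 18 or 30 months after injection), 2 animals with a granuloma (14 and 16 months) and 2 with a fibrosarcoma (18 and 30 months). The C57BL/6 mice, aged 3 to 4 months, gave 3 untreated controls and 3 animals with a fibrosarcoma 11, 12 and 14 weeks after injection. Each tumor-bearing animal gave 2 libraries, 1 of the tumor on the injected side (IS) and 1 of muscle on the uninjected side (UIS). Every library comes from 1 animal, so that p-values measure the spread between animals, and an animal is named here by its number in the labels.

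PDGF ligands pair into dimers that bind and join PDGF receptors at the cell surface, and both receptors are known from fibroblasts and other connective tissue cells, Pdgfrb also from the mural cells that wrap small vessels. FGF receptors, the hepatocyte growth factor (HGF) receptor Met and the epidermal growth factor (EGF) receptor Egfr belong to the same large class of receptor tyrosine kinases, and all of them feed the Ras and mitogen-activated protein kinase relay. Fgfr4 is known from muscle precursor cells, whereas Fgfr1 is widely used in connective tissue.

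Values are normalized reads, that is reads of a gene divided by 1 size factor of its library. Library depth was 17025447 to 23386729 reads in Spalax and 22143060 to 31179183 in mouse. The tissue changed between the sides. The summed level of 5 skeletal muscle markers lay between 622250 and 2586366 in the 12 Spalax muscle libraries and between 137 and 2324 in the 4 tumors, and that of 6 markers in mouse between 854487 and 3930149 in the 6 muscle libraries and between 83.2 and 40828 in the 3 tumors. The summed level of 6 fibroblast markers (Col1a1, Col1a2, Col3a1, Dcn, Lum and Thy1) was 111557 to 1884653 in the Spalax tumors against 7046 to 196779 in Spalax muscle, and 140227 to 162342 against 3845 to 55428 in mouse. In such bulk samples fewer cells of a type and less RNA per cell cannot be told apart. Tolerant 2251 stood apart from the other tolerant libraries, with a fibroblast marker sum of 196779, a macrophage marker sum of 17421 and 343 normalized reads of the skin keratin Krt5, which was at 0 in the 15 other Spalax libraries.

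**Figure D1:**
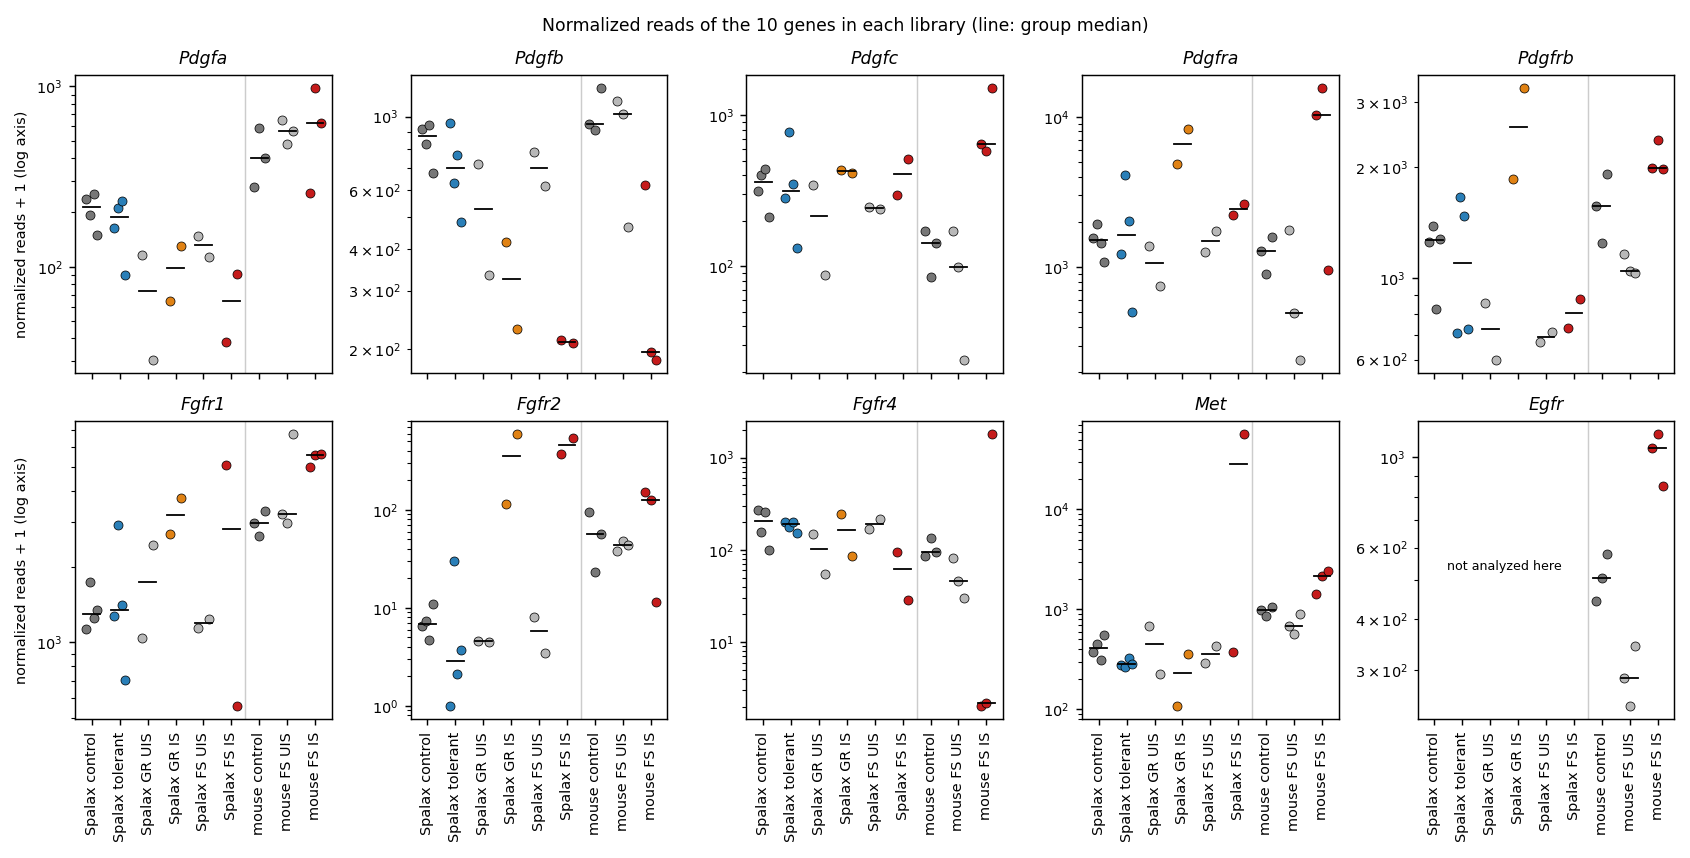
Normalized reads plus 1 on a log axis for each of the 10 genes, with 1 point per library and a line at the group median, for 9 groups (GR, granuloma; FS, fibrosarcoma; IS, injected side; UIS, uninjected side). Fgfr2 is at 115 to 593 in the 4 Spalax tumors and at 0 to 29.3 in the 12 Spalax muscle libraries, Met reaches 56798 in 1 Spalax fibrosarcoma, and Fgfr4 reaches 1797 in 1 mouse fibrosarcoma.

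The first question was how the genes differ between a granuloma and uninjected muscle of the same Spalax. Both PDGF receptors rose, Fgfr2 was far higher in both tumors, and none of the 9 genes tested fell by the test. Genes were called by limma on log2(value + 1) where the p, adjusted by Benjamini-Hochberg over all 14735 genes tested, did not exceed 0.05. In this way 3 of the 9 genes tested were called, all higher in the tumor. Over all genes 24.3% were called and 11.7% were called higher. Of the 3 calls, that of Fgfr2 came from a gene that met the minimum value of 10 in the tumors and not on the uninjected side, so it had to differ and its call adds nothing to the count. The median log2 fold change of the 9 genes was 1.00, beside -0.01 over all genes.

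Pdgfra, the receptor that binds most PDGF dimers, read 4878 in granuloma 600 and 8268 in granuloma 976, against 1374 and 754 on the uninjected side. The highest 2 libraries of the series in Spalax were these tumors. The sides did not overlap, as was so for 10289 of the 14735 genes tested. The log2 fold change was 2.64 (SE 0.47, adjusted p = 0.0191), made up of 1.83 in animal 600 and 3.45 in animal 976. In mouse the gene lies at chr5:75152292-75198215 on the plus strand (GRCm38). Pdgfrb read 1854 and 3269 in granulomas 600 and 976 against 855 and 598, and again the tumors were the highest Spalax libraries. Its log2 fold change was 1.78 (SE 0.43, adjusted p = 0.0377), and 0.0546 with the animal as a block, which ends the call. The summed level of 6 mural cell markers (Rgs5, Cspg4, Notch3, Kcnj8, Abcc9 and Mcam) was 8872 to 12734 in the granulomas and 8169 to 12585 on the uninjected side, so that the ranges overlapped, whereas the fibroblast marker sum was 887290 to 1884653 against 12908 to 18006. The part of these cells in the rise of either receptor was not tested.

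Fgfr2, a receptor known from epithelial cells among others, was at 115 in granuloma 600 and 593 in granuloma 976. It was at 3.62 and 3.53 on the uninjected side, where each library held 3 reads. Both tumors were far above every Spalax muscle library. The fitted log2 fold change of 5.84 (SE 0.98, adjusted p = 0.0172) depends on the added value of 1 and on that filter, and it is given as a description. Pooled reads (1140 against 6), each side divided by its summed size factors, gave a ratio of 105 with an exact 95% interval of 48.2 to 287 for counting error. The 6 epithelial markers (Epcam, Cdh1, Krt5, Krt14, Krt8 and Krt18) summed to 18.9 and 125 in the granulomas and to 25.3 and 14.1 on the uninjected side.

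The remaining genes did not pass the test in granulomas. The ligand Pdgfc read 433 and 415 in the tumors against 345 and 86.0 (log2 fold change 1.29, 95% interval -0.56 to 3.14), and Fgfr1 read 2702 and 3749 against 1034 and 2444 (1.00, -0.28 to 2.28). Pdgfa, Pdgfb, Fgfr4 and Met had log2 fold changes of 0.64, -0.66, 0.67 and -0.99, with intervals that all held 0. Each call in this comparison rests on few libraries. Pdgfra lost its call without IS 600, IS 976 or UIS 976 (adjusted p 0.0964, 0.143 and 0.0734), and Pdgfrb and Fgfr2 lost theirs without any 1 of the 4 libraries (0.0645 to 0.227 and 0.0611 to 0.101), while the log2 fold changes stayed between 2.21 and 3.07, between 1.37 and 2.19 and between 4.66 and 7.02.

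**Figure D2:**
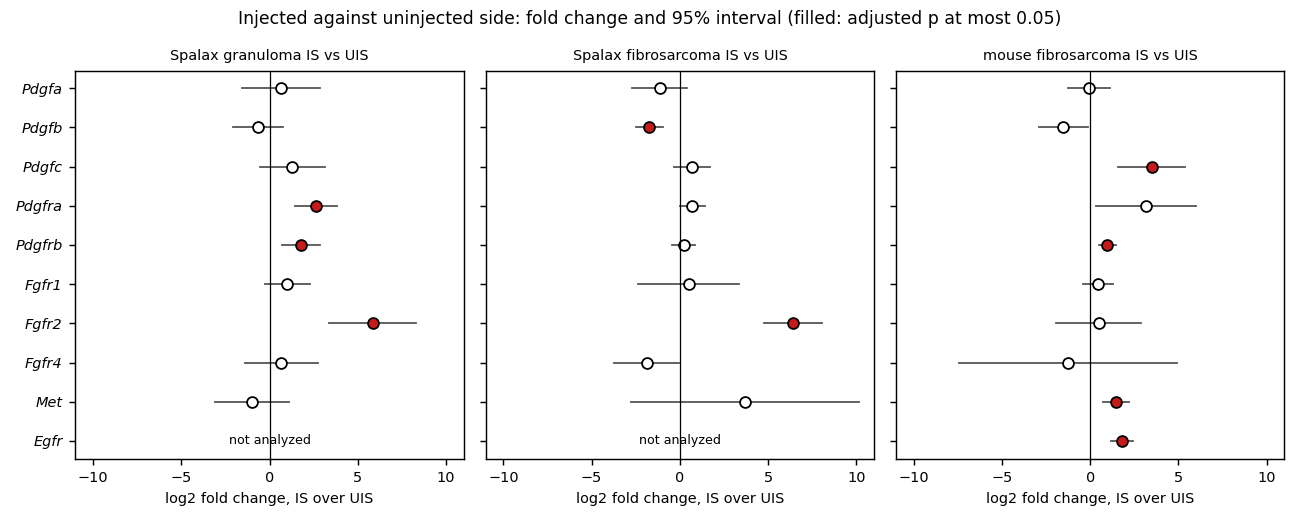
Log2 fold change of the injected over the uninjected side with its 95% interval from limma for the 10 genes in granuloma, Spalax fibrosarcoma and mouse fibrosarcoma, filled where the adjusted p was at most 0.05. Fgfr2 is filled in both Spalax panels, at 5.84 and 6.41, and the widest intervals are those of Met in Spalax fibrosarcoma (-2.75 to 10.15) and Fgfr4 in mouse (-7.45 to 4.91).

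Spalax fibrosarcomas were compared with uninjected muscle in the same way. Fgfr2 was far higher in both tumors, Pdgfb fell, and the 2 tumors differed from each other in Met and Fgfr1. Of the 9 genes tested, 2 were called, against 36.3% of all 14696 genes. The median log2 fold change of the 9 genes was 0.50, beside 0.03 over all genes.

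Fgfr2 stood at 369 in fibrosarcoma 2230 and 539 in fibrosarcoma 2240, against 7.11 and 2.42 on the uninjected side (5 and 2 reads). The log2 fold change was 6.41 (SE 0.63, adjusted p = 0.00542), a description again, since the gene met the minimum value in the tumors only. The ratio of pooled reads (1492 against 7) over summed size factors was 98.9, with an exact 95% counting interval of 47.9 to 246. All 4 Spalax tumors therefore lay above all 12 muscle libraries, which held 0 to 29.3. The 6 epithelial markers summed to 39.6 and 35.7 in fibrosarcomas 2230 and 2240, below the 68.2 and 78.8 of their uninjected sides. The part of epithelial cells in the Fgfr2 level was not tested. Pdgfb, a ligand made by endothelial cells that recruits mural cells to vessels, read 212 and 207 in the tumors against 780 and 618, and these were the lowest 2 values among the Spalax libraries. Its log2 fold change was -1.73 (SE 0.28, adjusted p = 0.0146). The summed level of 6 endothelial markers (Pecam1, Cdh5, Kdr, Tek, Tie1 and Emcn) was 3088 to 3690 in these tumors and 8160 to 9228 on the uninjected side, and its part in the fall of Pdgfb was not tested. Both calls were lost without UIS 2230 or UIS 2240, at an adjusted p of 0.218 and 0.156 for Pdgfb and of 0.0926 and 0.0934 for Fgfr2, but these 2 limma fits called 0% of all genes (3521 and 3930 at an unadjusted p below 0.05). Their log2 fold changes were -1.56 and -1.89 for Pdgfb and 7.03 and 5.78 for Fgfr2.

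Met, the receptor of HGF, was set apart by 1 tumor. It stood at 56798 normalized reads in fibrosarcoma 2240 (92395 reads, 0.419% of the library) and at 375 in fibrosarcoma 2230, with 430 and 291 on their uninjected sides. Fibrosarcoma 2240 exceeded the next Spalax library, granuloma UIS 600, 83.8 times, and Met was the gene of rank 9 in that tumor, while 15 libraries lay between 107 and 678. With 2 tumors so far apart the log2 fold change was 3.70 with an SE of 2.43 (adjusted p = 0.288), and it was 0.08 without fibrosarcoma 2240 and 7.32 without fibrosarcoma 2230. DESeq2 on the recovered reads did call Met (log2 fold change 6.26, adjusted p = 0.0125).

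The genes beside Met were high in the same tumor. Met lies at chr6:17463800-17573980 on the plus strand in mouse (GRCm38), and gene order in Spalax was not analyzed here. Of the 30 nearest protein-coding genes in mouse, 15 on each side, 27 were read from the Spalax table. In fibrosarcoma 2240, 10 of these 27 were at least 4 times higher than in any other Spalax library, against 0.978% of the 16982 genes with a value of 10 or more in some library, and 7 were at least 10 times higher. The 7 are Tes, Cav2 and Cav1 before Met and Capza2, St7, Cftr and Cttnbp2 behind it. Cav1, which builds caveolae, read 116474 where the highest of the other libraries read 3406. Capza2, which caps actin filaments, read 190586 against 10386, and Cttnbp2 read 19749 against 448. Cftr, a chloride channel known from epithelia, read 676 against 15.7.

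The stretch was not even. Wnt2 and Asz1, which lie between St7 and Cftr in mouse, read 114 and 36.3 and were below the highest other library (170 and 78.6). Beyond Tes, Tfec and Mdfic were at 153 and 714 against 176 and 1421 elsewhere, and beyond Lsm8, which read 3023 against 589, none of the 7 genes analyzed was above the other libraries. Farther off, Phf14 and Tmem168 were 4.86 and 4.25 times above the highest other library. Thsd7a, Tmem106b, Vwde and Gpr85 in the same part were 2.65, 2.37, 2.03 and 2.08 times above it. Ppp1r3a and Foxp2, nearer to Met, were not above the other libraries. In all, 14 of the 27 neighbors were above every other Spalax library, against 12.9% of the 16982 genes. The neighbors were chosen after the value of Met had been seen. DNA was not measured, and the copy number of this stretch was not tested.

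**Figure D3:**
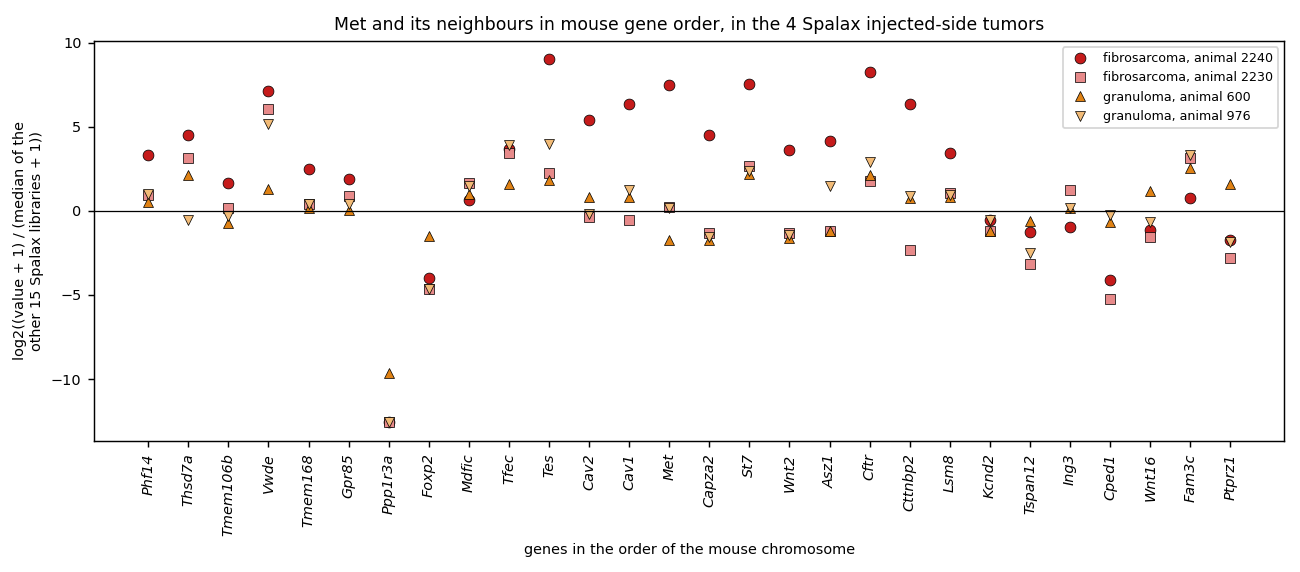
Log2 of the level in a tumor over the median of the other 15 Spalax libraries, with 1 added to both, for Met and 27 of its neighbors set in mouse gene order, with 1 symbol for each of the 4 Spalax tumors. Fibrosarcoma 2240 stands above the other tumors from Tes to Lsm8, with Met 83.8 times above the next library, and beyond Lsm8 its log2 values lie between -4.11 and 0.74.

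Fgfr1 separated the 2 fibrosarcomas in the other direction. It read 5072 in fibrosarcoma 2230, the highest Spalax library, and 556 in fibrosarcoma 2240, the lowest, with 1142 and 1235 on their uninjected sides. The log2 fold change was 0.50 (95% interval -2.38 to 3.38, adjusted p = 0.744). It turned to -1.09 (adjusted p = 0.00918) without fibrosarcoma 2230 and was 2.09 (adjusted p = 0.00182) without fibrosarcoma 2240, where the lone tumor is assumed to vary like the other group. Those fits called 7 and 4 of the 9 genes, against 56.4% and 57.1% of all genes.

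Pdgfra and Pdgfrb moved little in these tumors. Pdgfra read 2225 and 2640 against 1255 and 1741, with a log2 fold change of 0.71 (95% interval -0.01 to 1.43), and Pdgfrb read 730 and 875 against 668 and 710 (0.21, -0.42 to 0.85). Fgfr4 was lower in both tumors, at 93.0 and 27.7 against 168 and 213, and did not pass after adjustment (log2 fold change -1.87, SE 0.70, adjusted p = 0.0991). Pdgfa and Pdgfc had log2 fold changes of -1.14 (-2.70 to 0.41) and 0.69 (-0.33 to 1.70).

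In mouse fibrosarcomas the ligand Pdgfc and the receptors Pdgfrb, Met and Egfr rose. Of the 10 genes, 4 were called, all higher in the tumor, while 45.1% of all 15220 genes were called and 22.8% were called higher. The median log2 fold change of the 10 genes was 0.72, beside 0.11 over all genes. These 4 calls held in each of the 14 alternative fits.

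Pdgfc, a ligand that must be cleaved before it binds its receptor, read 642, 576 and 1512 in the tumors of animals 1019, 1023 and 512, against 171, 98.0 and 23.0 on the uninjected side. The sides did not overlap, as was so for 9169 of the 15220 genes tested, and tumor 512 was the highest library. The log2 fold change was 3.48 (SE 0.78, adjusted p = 0.0137). Egfr, the receptor of EGF and several related ligands (chr11:16752203-16918158, plus strand), read 1051, 1138 and 847 against 287, 244 and 343. Its log2 fold change of 1.80 (SE 0.25, adjusted p = 0.00341) had the smallest p of the 10 genes here, with 1.30 to 2.21 in single animals. Control muscle held 443 to 579, between the sides.

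Met rose in every mouse tumor and within a narrow range, unlike in Spalax. It read 1435, 2167 and 2398 against 688, 570 and 907 (log2 fold change 1.46, SE 0.30, adjusted p = 0.00977). Pdgfrb read 1981, 2368 and 1971 against 1161, 1042 and 1031, and its rise of 0.96 (SE 0.20, adjusted p = 0.0102) was the smallest that was called. The mural cell marker sum was lower in the tumors, at 2518 to 5606 against 17626 to 22467, while the fibroblast marker sum was higher, at 140227 to 162342 against 3845 to 28103. The part of these cells in the rise of Pdgfrb was not tested.

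Pdgfra rose in each animal but not past the threshold. It read 10245 in tumor 1019 and 15553 in tumor 1023 but 957 in tumor 512, against 1758, 491 and 240, so that tumor 512 lay within the range of muscle. The log2 fold change was 3.17 (SE 1.19, adjusted p = 0.0683), and the call is made with the animal as a block (adjusted p = 0.0179) without tumor 512 (4.41, adjusted p = 0.0133) and without UIS 1019 (3.96, adjusted p = 0.0495). Pdgfb was lower in all 3 animals, with 620, 196 and 185 against 1113, 1017 and 465 (log2 fold change -1.51, SE 0.58, adjusted p = 0.0729, and 0.0320 with the block). Pdgfa read 254, 978 and 622 against 652, 475 and 561, with a log2 fold change of -0.06. In mouse 26.1% of its exon bases lie under a gene on the opposite strand, and the strand setting of the counting was not given in the sources used here.

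Tumor 512 stood apart in Fgfr4 as well. Fgfr4 read 1797 there and 1.03 and 1.19 in tumors 1019 and 1023 (2 reads each), against 79.8, 45.4 and 28.8 on the uninjected sides of animals 1019, 1023 and 512 and 84.7 to 133 in control muscle. It was thus 13.6 times above the next mouse library in 1 tumor and nearly absent in the others, and the log2 fold change of -1.27 had an interval of -7.45 to 4.91. Without tumor 512 it was -4.51 (adjusted p = 0.00713). Of the 30 neighbors of Fgfr4 in the mouse genome, none with reads in another mouse library was 4 times above the other libraries in that tumor. Eif4e1b and Slc34a1 read 0.526 and 1.58 there and 0 in every other mouse library. The share was 1.32% over the 17931 genes compared, so none among 30 is near that share.

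Markers of muscle precursors were high in the same library. Pax7 read 1755, Myf5 888 and Myod1 2831 in tumor 512, while in tumors 1019 and 1023 Pax7 was at 0 and 0.593, Myf5 at 3.62 and 1.19 and Myod1 at 0.517 and 6.52. The 4 satellite cell markers, which include Calcr at 8.95, summed to 5483 in that tumor and to 90.7 to 758 in mouse muscle. Its fibroblast marker sum of 140227 was the lowest of the 3 tumors (149795 in 1019 and 162342 in 1023) but above all mouse muscle, though Col1a1 alone was highest there (39336 against 28179 and 15538), and its label is fibrosarcoma like theirs. Fgfr2 was again different there, at 10.5 against 151 and 125 in the other tumors, 37.5 to 47.4 on the uninjected side and 22.1 to 94.5 in control muscle (log2 fold change 0.47, SE 1.00, and 1.67 without tumor 512, adjusted p = 0.0285). Without that tumor 7 of the 10 genes were called, against 41% of all genes, the added ones being Pdgfra, Fgfr2 and Fgfr4.

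**Figure D4:**
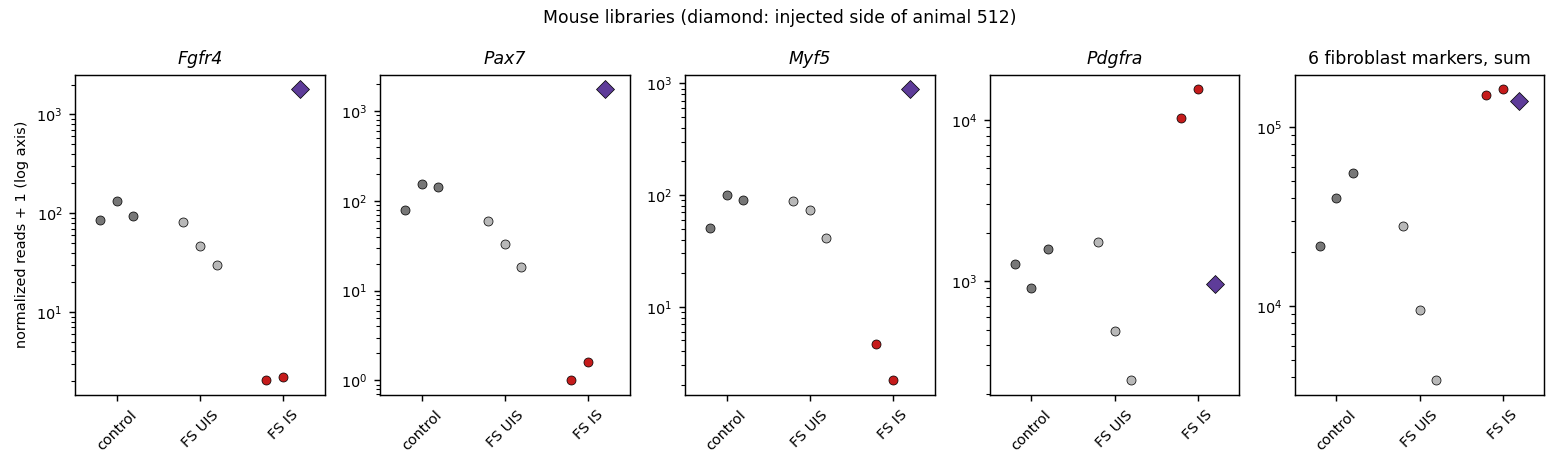
Normalized reads plus 1 on log axes for Fgfr4, the muscle precursor markers Pax7 and Myf5, Pdgfra and the sum of 6 fibroblast markers in the 9 mouse libraries, with the tumor of animal 512 as a diamond. Tumor 512 is highest in Fgfr4 (1797), Pax7 (1755) and Myf5 (888), and it is the lowest tumor in Pdgfra (957) and in the fibroblast sum (140227).

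Fgfr1 in mouse read 5009, 5557 and 5638 in the tumors and 3230, 2985 and 6750 on the uninjected side, so that UIS 512 was the highest library and the sides overlapped (log2 fold change 0.42, 95% interval -0.43 to 1.27). Per kilobase of merged exons the tumors held most Pdgfra among the 10 genes on average (890 ± 737 normalized reads per kilobase, SD, n = 3), with a spread too wide to set it apart from Fgfr1 (547 ± 34.7). Pdgfrb followed at 385 ± 41.4 and Met at 260 ± 65.5, and Fgfr2 stood at 9.25 ± 7.24, while the mean of Fgfr4 (169 ± 293) rests on tumor 512, with 0.292 as the lowest tumor. On the uninjected side Fgfr1 led at 438 ± 213, ahead of Pdgfb at 208 ± 84.0 and Pdgfrb at 197 ± 13.2, whose ranges overlapped, and Egfr stood at 25.7 ± 4.35.

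Whether these differences themselves differ between tumors was tested with interaction terms. Between Spalax fibrosarcoma and granuloma, 0 of 9 genes and 0% of 15584 genes had a different response by limma, with 766 genes at an unadjusted p below 0.05, 0 genes called by edgeR and 88 by DESeq2. Pdgfra and Pdgfrb were the 2 genes of the 9 with an unadjusted p below 0.05, responding less in fibrosarcoma by 1.93 (SE 0.58) and 1.57 (SE 0.51) on the log2 scale, each with an adjusted p of 0.946. Set directly against granulomas, the fibrosarcomas were lower in Pdgfra by a log2 of -1.39 (SE 0.39) and in Pdgfrb by -1.62 (SE 0.39), and again 0 of 9 genes and 0% of 14562 genes were called (591 at an unadjusted p below 0.05, 0 by edgeR, 153 by DESeq2). In both comparisons the gene among the 9 that DESeq2 called was Met, the one decided by fibrosarcoma 2240.

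Between the fibrosarcomas of Spalax and mouse, 4.55% of 12816 shared genes responded differently and 0 of 9 genes did. Fgfr2 came closest, with a response higher in Spalax by 5.93 (SE 1.46, adjusted p = 0.0548). Its uninjected Spalax libraries held 5 and 2 reads, so this size depends on the added value of 1. It passed the threshold by DESeq2 (5.47, adjusted p = 0.00163) and without mouse tumor 512 (4.74, adjusted p = 0.0255) or mouse tumor 1019 (adjusted p = 0.0494). With the animal as a block it was not called, in a fit that called 97 of the 12816 genes. Pdgfc and Pdgfrb responded less in Spalax by log2 values of -2.79 (SE 1.10) and -0.75 (SE 0.29), with adjusted p of 0.174 and 0.163. The tables of the species were normalized separately and rest on different gene models.

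Spalax tumors were also set against the injected side of tolerant animals, which asks what distinguishes tumor from treated muscle without a tumor. Of 9 genes, 2 were called, against 46.4% of 14578 genes, and the tumor libraries are those of the comparisons above. Fgfr2 was higher by a log2 of 6.45 (SE 1.02, adjusted p = 0.00124), having met the filter through the tumors, with tolerant libraries at 0, 1.09, 2.68 and 29.3. Pdgfb was lower by 1.43 on the log2 scale (SE 0.31, adjusted p = 0.00616), with 480 to 957 in tolerant muscle and 207 to 420 in the tumors. These ranges did not overlap, as was so for 6080 of the 14578 genes tested. Pdgfra was at 500, 1231, 2030 and 4124 in tolerant 2375, 2218, 2261 and 2251, and the last of these exceeded both fibrosarcomas, so that the groups overlapped (log2 fold change 1.38, 95% interval -0.07 to 2.83). Tolerant 2251 was also the highest tolerant library in Pdgfc (779), Fgfr1 (2929), Pdgfrb (1652) and Fgfr2 (29.3). Tolerant libraries carry dual and tumor libraries single sequencing indexes, so index and group cannot be told apart. Sex is unbalanced too, with mostly males among the tolerant and mostly females among the tumor-bearing animals.

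Muscle without a tumor showed no called difference in any of these genes. For tolerant against control Spalax, 0 of 8 genes tested and 0% of 14020 genes were called by limma, with 733 genes at an unadjusted p below 0.05, 0 genes called by edgeR and 60 by DESeq2. Met had the smallest p, at 265 to 322 against 312 to 559 (log2 fold change -0.53, SE 0.22, unadjusted p = 0.0384, adjusted p = 0.923), and the intervals of the 7 others held 0. The side of the neck and the sex also differ, since controls are uninjected-side muscle of females and 3 of the 4 tolerant animals are males. For uninjected muscle of tumor-bearing Spalax against controls, 0 of 8 genes and 0% of 13909 genes were called, with 2315 at an unadjusted p below 0.05, 0 by edgeR and 516 by DESeq2. Pdgfrb read 598 to 855 against 821 to 1381 (log2 fold change -0.72, SE 0.21, unadjusted p = 0.00689, adjusted p = 0.205), and Pdgfa read 29.4 to 148 against 148 to 253 (-1.21, SE 0.47, adjusted p = 0.260). These groups, too, differ in index type, so that the 2 cannot be told apart. Fgfr2 was below the filter in both comparisons, at 0 to 29.3 in all muscle.

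In mouse, uninjected muscle against control muscle gave 0 of 10 genes and 0% of 14792 genes, with 1621 at an unadjusted p below 0.05, 0 by edgeR and 342 by DESeq2. Egfr read 244 to 343 against 443 to 579, Fgfr4 28.8 to 79.8 against 84.7 to 133, and Pdgfrb 1031 to 1161 against 1241 to 1914. These 3 of the 10 genes did not overlap between the groups, beside 21.2% of all genes. Their log2 fold changes were -0.81 (SE 0.26, adjusted p = 0.441), -1.09 (SE 0.45, adjusted p = 0.453) and -0.52 (SE 0.24, adjusted p = 0.471). Mouse control and uninjected libraries differ in index in the same way.

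The other genes of these pathways were counted from a list of 45 ligands, receptors, adaptors and feedback genes. In granulomas 39 were tested, of which 7 rose and 4 fell, against 24.3% of all genes called. The 4 that fell are Egf, a ligand of Egfr, the EGF family receptors Erbb3 and Erbb4, and Fgfrl1, an FGF receptor without a kinase. Egf read 29.0 and 33.2 against 501 and 1096 (log2 fold change -4.53, SE 0.60, adjusted p = 0.0105). Erbb3 fell by 6.00 on the log2 scale (SE 1.58, adjusted p = 0.0478), with 2579 in UIS 976 and 166 in UIS 600 against 26.0 and 2.90. Hgf, the ligand of Met, rose from 2.36 and 6.03 to 63.9 and 105 (4.09, SE 0.82, adjusted p = 0.0251). Hgf met the minimum value for testing in the tumors only, so it had to differ and its call adds nothing to the count. Its log2 fold change is given as a description. Dusp5, a phosphatase induced by this relay, rose by 3.42 (SE 0.59, adjusted p = 0.0182).

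In Spalax fibrosarcomas 38 of the list were tested, with 5 higher and 4 lower, against 36.3% of all genes. The 5 higher genes are Hgf, the Met relative Mst1r, the ligand Nrg1, the adaptor Shc1 and the inhibitor Spred2, and the 4 lower ones are Egf, Fgfrl1, Fgf21 and the phosphatase Ptpn11. Hgf read 174 and 91.0 in fibrosarcomas 2230 and 2240 against 1.42 and 7.27 (log2 fold change 4.82, SE 0.82, adjusted p = 0.0159). Tumor 2240, with the high Met, thus held less Hgf than tumor 2230. Here too Hgf met the minimum value in the tumors only, so its call adds nothing to the count. Egf fell from 1680 and 1548 to 16.2 and 11.7 (-6.77, SE 0.37, adjusted p = 0.00178), and the log2 fold changes of Fgfrl1 and Fgf21 were -4.16 (SE 0.32, adjusted p = 0.00381) and -3.65 (SE 0.78, adjusted p = 0.0274). With the animal as a block 8 were higher and 3 lower, against 4886 of all 14696 genes called. Ptpn11 was then no longer called (adjusted p = 0.0601), and Spred1 (0.0279), Dusp5 (0.0335) and Cbl (0.0449) were. Mst1r, Nrg1, Shc1, Spred2, Ptpn11, Spred1, Dusp5, Cbl and, in granulomas, Erbb4 and Fgfrl1 were named after their values had been seen.

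In mouse fibrosarcomas 42 were tested, of which 17 rose and 6 fell, against 45.1% of all genes. Ereg, another ligand of Egfr, read 250, 1978 and 91.6 in tumors 1019, 1023 and 512 against 39.9, 4.13 and 0 (log2 fold change 5.91, SE 1.62, adjusted p = 0.0256). Hgf read 419, 870 and 130 against 30.2, 3.09 and 5.76 (5.25, SE 0.99, adjusted p = 0.00796). Fgf6, a ligand of muscle, fell by 5.23 (SE 0.55, adjusted p = 0.00181) and the coreceptor Klb by 4.13 (SE 0.83, adjusted p = 0.00963). Of the 14 feedback and target genes 10 were called, all of them higher. In Spalax tumors against tolerant muscle 11 of 38 rose and 4 fell, against 46.4% of all genes called. Egf at -5.89, Dusp5 at 3.91, Fgfrl1 at -3.89 and Erbb3 at -3.77 had the largest log2 fold changes of their roles. Fgfrl1 was the 1 gene of the 45 whose response differed between the species, beside 4.55% of all genes. It was lower in Spalax by 3.42 (SE 0.73, adjusted p = 0.0374). In the 5 other comparisons 0 genes of the list and 0% of all genes were called.

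**Figure D5:**
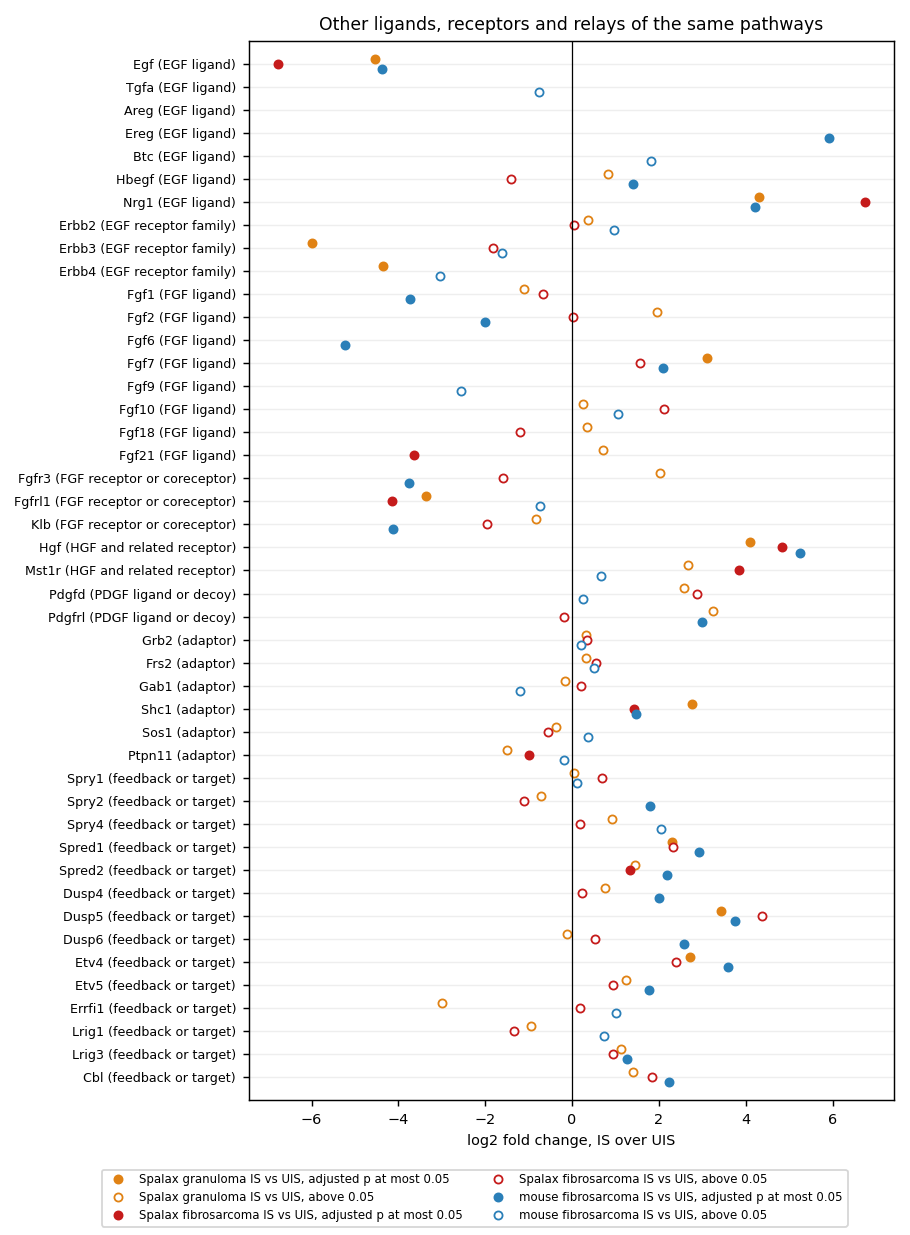
Log2 fold change of the injected over the uninjected side for the 45 other genes of the pathways, by role, in granuloma (orange), Spalax fibrosarcoma (red) and mouse fibrosarcoma (blue), filled where the adjusted p was at most 0.05. Hgf and Nrg1 are filled on the right and Egf on the left in each of the 3 tumors, and 10 of the 14 feedback genes are filled in mouse. In granuloma and Spalax fibrosarcoma Hgf met the minimum value for testing in the tumors only.

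For each of the 10 genes the most similar profiles were sought by the root mean square difference of centered log2(value + 1), over 16 Spalax libraries and 13256 genes or 9 mouse libraries and 14493 genes. Met in Spalax was closest to Ankib1 (0.815), Krit1 (0.821) and Cav1 (0.836), all of which peak in fibrosarcoma 2240. That library dominates the profile of Met, so the shared peak there follows from the search. Ankib1 read 35014 there and at most 1288 in the other libraries, and Krit1 read 25962 against 1275. Both lie on chromosome 5 in mouse, not beside Met. Fgfr4 in mouse was closest to Pax7 (0.466), Myf5 (0.657) and Frmpd1 (0.855). They shared the high value in tumor 512, which again follows from the search. Fgfr2 in Spalax was closest to Parpbp, Mns1 and Aspm (0.824 to 0.872), with an own spread of 2.85.

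For the other genes the distances, which grow with a gene's own spread, were as follows. Pdgfb in Spalax was closest to Ppdpf (0.215), Rnf5 and Tmub1, and in mouse to Eng (0.188), Lrrc10b and Fer1l5. Pdgfra was closest to Cacnb3 (0.389), Emp1 and Lsp1 in Spalax and to Clstn2 (0.394), Klrg1 and Dnm1 in mouse, and Pdgfrb to Ston1 (0.356), Gatsl3 and Lrpap1 and, in mouse, Wipf2 (0.121), Hiatl1 and Zfyve16. Pdgfa was closest to Id3, Cd200 and Cpped1 in Spalax (0.460 to 0.466) and to Strap, Cetn3 and Pter in mouse (0.328 to 0.343), and Pdgfc to Mfsd10, Zfp90 and Map4k2 (0.378 to 0.390) and to Akr1b8, Spats2 and Abracl (0.360 to 0.388). Fgfr1 was closest to Sash1 (0.352), Nrros and Ccdc80 in Spalax and to Zc3h13 (0.0862), Wdr46 and Tnpo2 in mouse. For Fgfr4 in Spalax the genes were Astn2 (0.415), Tle2 and Rab26, for Fgfr2 in mouse Trabd2b (0.359), St6galnac5 and Ldb2, for Met in mouse Spin1 (0.182), Lsm11 and Gas2, and for Egfr Tet3 (0.179), Lamc1 and Slc25a30. None of the 10 genes was among the 3 closest of another.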

How the data were processed

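RNA-seq was measured in 16 Spalax and 9 mouse libraries, made strand-specific and read from one end for 101 cycles. The authors trimmed the reads with Trimmomatic, mapped them with TopHat to the Spalax or mouse reference and assigned them to genes with htseq-count. The submitters' processing notes name TopHat 1.4.1 and GRCm38. Each deposited value is a signal, the read count of a gene after the authors scaled it with a single size factor of that library, in 1 table per species. Commas in 2387 Spalax gene names were read as the letter t. Dividing by the value of 1 read (0.517 to 1.44 by library) gave whole reads for 100% of the values within 0.01 reads.

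Tests were made with limma 3.58.1 in R 4.3.3 (lmFit, eBayes with trend, two-sided) on log2(value + 1). A gene was tested if it reached 10 in a number of libraries equal to the size of the smaller group. The log2(value + 1) scale makes the changes of low genes look smaller than they are. A fit held the libraries of the groups compared and no covariates. The alternatives were edgeR 4.0.16 (quasi-likelihood) and DESeq2 1.42.0 on the recovered reads, scaling by total reads, pseudocounts of 0.1 and 5, no filter, the animal as a block, 1 model over all libraries of a species and each library left out in turn. The fits of some comparisons were also run on simulated counts with a fixed dispersion and no animal effects or outlying libraries. Such counts cannot show how calls fare where 1 library stands far apart. The granuloma library UIS 976 carries another number in its raw library name and was taken as labeled. IS and UIS libraries with the same number in the labels were taken as from the same animal and therefore paired. Their deviations from the group means correlated at 0.0092 in granuloma, -0.0019 in Spalax fibrosarcoma and 0.047 to 0.178 in mouse.

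The members and the gene lists were chosen with earlier results of these data known. All 10 members are named, and other pathway genes if called in a tumor comparison, taking the largest log2 fold change of each role and up to 4 per comparison. Nearest profiles were the 3 genes with the smallest root mean square difference. Positions and exon lengths come from GENCODE vM21 (GRCm38) and apply to mouse. Intervals of read ratios are exact at 95% and cover counting error only, since the reads carry no molecular identifiers. Plots were made with matplotlib 3.10.9 (Python 3.11.15).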

Additional observations from a re-analysis of the deposited data

Results flagged for a closer look

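Among the 18 sets of 4 libraries examined (9 genes in Spalax control and tolerant muscle), 1 library lay far from the rest. Chance alone would set apart about 1 set in 20, so that 1 in 18 is no excess. It is Fgfr2 in tolerant 2251, at 29.3 normalized reads against 0 to 2.68 in the other tolerant libraries, a gap of 0.908 of the whole range. Those libraries held 0, 1 and 2 reads of the gene, against 39 in tolerant 2251. Its epithelial marker sum was 685 against 46.3 to 52.6 in the other tolerant libraries, its fibroblast and macrophage marker sums were also the highest of that group, and their part in its Fgfr2 level was not tested.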

How the results depend on the processing

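The number of the 10 genes called stayed within 1.5 times that reported under all but 5 settings that kept every library. Scaling by total reads gave 5 in Spalax fibrosarcoma (6840 of all 14696 genes), 1 model over all 16 libraries gave 4 for tumor against tolerant (7686 of 14578), and DESeq2 gave 1 for fibrosarcoma against granuloma (153 of 14562), 1 for the granuloma and fibrosarcoma responses (88 of 15584) and 3 for the species responses (1900 of 12816). With 1 library left out the counts were 0 to 2 in granuloma (98 to 2882 of all genes), 0 to 7 in Spalax fibrosarcoma (0 to 8397), 4 to 7 in mouse (4238 to 7023), 2 to 3 for tumor against tolerant (5008 to 7721), 0 to 1 for the species responses (10 to 984) and 0 to 0 elsewhere, and in Spalax IS against UIS such a fit leaves 1 library on a side. With the replicate block the calls were 2, 2 and 6 in granuloma, Spalax fibrosarcoma and mouse. Over all genes the block called 3108 of 14735, 4886 of 14696 and 6707 of 15220. It ended the call of Pdgfrb in granuloma, which was also lost with no filter (adjusted p = 0.0550), and made those of Pdgfra and Pdgfb in mouse, and no other call of a member changed. Among the 45 pathway genes the block gave 7 higher and 4 lower of 39 tested in granuloma. It gave 8 and 3 of 38 in Spalax fibrosarcoma and 17 and 7 of 42 in mouse, beside the same counts over all genes.

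Scaling by total reads raised the median log2 fold change of all genes by 0.73, 0.80 and 1.06 in the 3 tumors and the share of calls that are higher from 48.0%, 47.8% and 50.5% to 75.0%, 75.7% and 81.9%. For tumor against tolerant the share went from 48.2% to 71.8% and the call of Pdgfb was lost (adjusted p = 0.0642), and for the species responses it went from 49.6% to 34.9%. Uncalled genes that changed sign under a setting with every library were Pdgfb in granuloma (0.078 by total reads) and, in mouse, Pdgfa (0.098 by edgeR, 0.074 by DESeq2, 1.01 by total reads) and Fgfr4 (3.54 by edgeR, and positive by DESeq2 with no adjusted p). With 1 library left out, log2 fold changes that crossed 0 ranged from -0.33 to 1.60 for Pdgfa and from -0.089 to 1.42 for Fgfr4 in granuloma, from -1.09 to 2.09 for Fgfr1 in Spalax fibrosarcoma, and in mouse from -0.49 to 0.48 for Pdgfa, from -0.19 to 1.67 for Fgfr2 and from -4.51 to 0.38 for Fgfr4. The causes were not tested. With 2 libraries a side in each Spalax tumor group, 1 library decides most calls there, and genes near a value of 10 rest on few reads.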
